A study of Mus musculus with 7 samples.

Results

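The 10 genes described here build, remodel or take up plasma lipoproteins in mouse liver: Pltp, Lcat, Lipc, Lpl, Mttp, Lrp1, Vldlr, Scarb1, Abca1 and Abcg1. They were taken by symbol from a table of 14889 genes, which held all 10, and all 10 passed the count filter that left 13693 genes for testing. RNA came from the livers of ApoE-/- mice of the C57BL/6 strain, 4 months old, kept on a Western diet over 3 months. Through the diet 4 mice were injected intraperitoneally with saline and 3 with PX-478 at 40 mg/kg, on a bi-weekly schedule, in the wording of the labels. The drug is given to inhibit HIF-1α, the transcription factor stabilised by low oxygen. Both groups carried the Apoe mutation and ate the same diet, so no library came from a mouse with working apolipoprotein E or on chow.

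The liver packs triglyceride and cholesteryl ester onto apolipoprotein B with the help of the microsomal transfer protein encoded by Mttp, and secretes the particle as very low density lipoprotein. In the circulation the particle is trimmed by lipoprotein lipase (Lpl) and hepatic lipase (Lipc), exchanges lipid through phospholipid transfer protein (Pltp), and its remnant is cleared by endocytic receptors such as Lrp1, for which apolipoprotein E is a main ligand. High density lipoprotein is loaded with cholesterol by Abca1 and Abcg1, matured by lecithin-cholesterol acyltransferase (Lcat) and unloaded into hepatocytes by Scarb1. Loss of apolipoprotein E stops much of the remnant clearance, so these mice carry high plasma cholesterol and are used as a model of atherosclerosis.

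The libraries held 10285776 to 17257304 counted reads, of which the 10 genes together took 16046 to 28702. Levels are given as CPM, read counts relative to library size after scaling by the trimmed mean of M-values (TMM), and differences as the log2 ratio of PX-478 to saline with its standard error (SE). Hepatocyte markers such as Alb summed to 27800 to 39200 CPM with saline and 25200 to 32300 CPM with PX-478. Apoe reads amounted to 130 to 284 CPM with saline and to 144 to 351 CPM with PX-478, and a count over the whole gene does not show whether they include the disrupted part. A pair of libraries stood apart. In PX-478 replicate 2 mitochondrially encoded genes took 22.4% of reads against 27.1% to 36.7% in the others, and its TMM factor was 1.29 against 0.888 to 1.05. In saline replicate 3, 1061 genes had no read, against 281 to 571 in the others.

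None of the 10 genes differed between the groups at an adjusted p under 0.05 in edgeR's quasi-likelihood test, where 1 of 13693 genes tested (0.0073%) did. DESeq2 and limma-voom also called 0 of the 10. Over all 13693 genes DESeq2 called 46 higher and 37 lower, and limma-voom called 0 in either direction. At an unadjusted p under 0.05, Pltp and Lpl were lower in PX-478 and Scarb1 was higher, where 3.48% of all genes were lower and 3.48% higher. In every PX-478 library Pltp, Lpl and Mttp lay below every saline library, a pattern that 4.29% of all genes showed on the same scale, while 4.3% lay above in every PX-478 library and none of the 10 did. The median log2 ratio of the 10 was -0.23, with 3 above 0 and 7 below, against a median of 0 over all genes tested, of which 49.7% lay above 0 and 50.3% below. The genes were proposed with results of these data in view, so these counts describe them and test nothing.

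**Figure D1:**
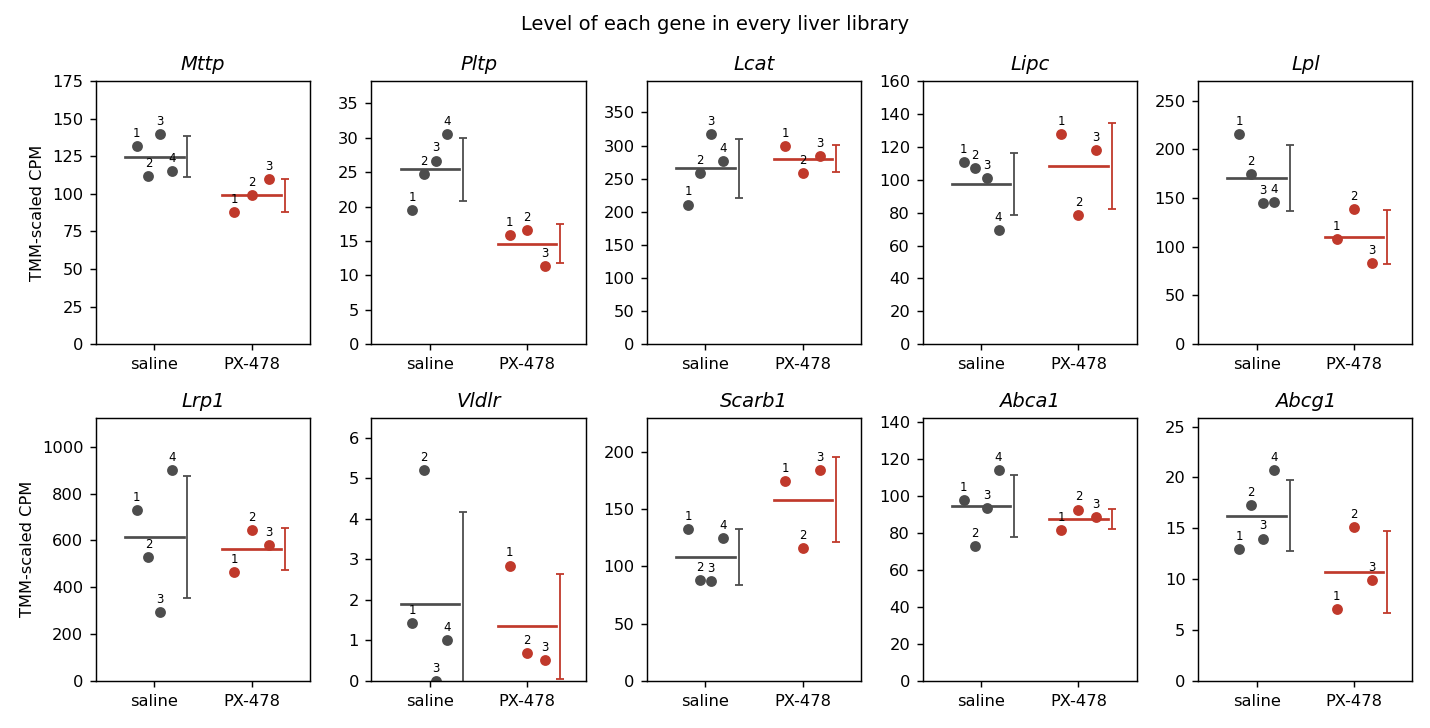
TMM-scaled CPM of the 10 genes (vertical axes, linear from 0) in 4 saline (grey) and 3 PX-478 (red) liver libraries. Each point is 1 library, numbered by replicate, horizontal lines are group means and bars beside them the SD, which for Vldlr is drawn only down to 0; Pltp, Lpl and Mttp are the genes without overlap between the groups.

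That separation depended on how PX-478 replicate 2 was scaled. On CPM by total counts, Pltp, Lpl and Mttp overlapped between the groups, and Scarb1 lay higher in every PX-478 library, at 149 to 180 CPM against 77.8 to 125 CPM in saline. Of all genes, 5.89% lay above and 1.47% below without overlap on that scale. With mitochondrially encoded genes taken out of the totals, Scarb1 was again the gene of the 10 that separated, at 192 to 284 against 111 to 171 CPM, where 6.7% of genes lay above and 1.67% below. Scaling by total counts moved the median log2 ratio of all genes to 0.15. On that scale, with the shift not subtracted, the log2 ratios were -0.62 for Pltp, -0.44 for Lpl, -0.19 for Mttp and 0.66 for Scarb1.

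Per kilobase of exon the genes spanned a wide range of levels in saline livers. Exon lengths are unions over all GENCODE transcripts of a gene, which understates the level of genes with long minor isoforms. Lcat was the most abundant at 197 CPM per kilobase (157 to 237), above Lipc at 45.1 (32.3 to 51.6) and Lrp1 at 34.7 (16.7 to 50.7), whose ranges overlapped. Mttp at 20.1 CPM per kilobase (18 to 22.6), Lpl at 16.3 (13.8 to 20.6) and Scarb1 at 12.7 (10.2 to 15.6) each overlapped with the next, and the wide range of Lrp1 reached down to Mttp and Lpl. Pltp at 9.91 CPM per kilobase (7.61 to 11.9), which overlapped with Scarb1, and Abca1 at 9.14 (7.04 to 11) could not be ordered by these ranges. Abcg1 at 2.23 (1.78 to 2.84) and Vldlr at 0.19 (0 to 0.516) were the lowest, and each lay apart from the gene above it.

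The promoters of Pltp and Abca1 are shown because Pltp had the smallest p of the 10 and Abca1 is the neighbour in level whose group means were close. Both are read 5′ to 3′ on the minus strand of GRCm38.p6, the assembly whose coordinates mm10 uses, from the RefSeq promoter table, and stop before the first base of any gene model. Pltp lies at chr2:164857712-164857958 and Abca1 at chr4:53159989-53160145. Capitals mark GCGTG and GGGCGG in Pltp, and CACGTG and GGGCGG in Abca1, on either strand.
Pltp: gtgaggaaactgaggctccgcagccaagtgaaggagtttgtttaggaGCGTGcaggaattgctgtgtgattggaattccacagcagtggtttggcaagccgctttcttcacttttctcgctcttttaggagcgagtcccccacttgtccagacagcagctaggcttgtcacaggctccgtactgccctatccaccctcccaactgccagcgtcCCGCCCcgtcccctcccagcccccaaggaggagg
Abca1: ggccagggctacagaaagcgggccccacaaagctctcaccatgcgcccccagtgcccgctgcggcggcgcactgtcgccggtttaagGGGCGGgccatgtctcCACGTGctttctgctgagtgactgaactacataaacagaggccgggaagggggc

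HIF binds the cores ACGTG and GCGTG, and ACGTG is contained in the E-box CACGTG that Abca1 holds. Over the 250 bases before the start, the table gave 9 windows for 7 of the 10 genes: Pltp, Lcat, Lipc, Lrp1, Mttp, Vldlr and Abca1. Of these windows 1 held ACGTG and 2 held GCGTG on either strand, where 16.6% and 28.2% of all 32851 windows did. CACGTG stood in 6.02% of all windows and in 1 of the 9, and the GC box GGGCGG in 32.7% and in 5 of the 9. The spaced repeats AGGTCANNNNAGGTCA and AGGTCANAGGTCA, read by LXR and other nuclear receptors, and the sterol element TCACNCCAC were in 0 of the 9 windows and in 0.0152%, 0.0335% and 1.05% of all.

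Assembly begins with Mttp, the lipid loader of apolipoprotein B (Entrez Gene 17777, chromosome 3 from 138089854 to 138144968, minus strand). Its saline libraries stood at 132, 112, 140 and 115 CPM and its PX-478 libraries at 87.9, 99.2 and 110 CPM. The groups did not overlap, though saline replicate 2 and PX-478 replicate 3 were close, and the SD was 13.5 and 10.9 CPM around means of 125 and 99. Its log2 ratio was -0.34 (SE 0.18, 95% interval -0.72 to 0.05) and its adjusted p 0.749 with edgeR's quasi-likelihood test. Mttp shares 7.36% of its exon bases with Trmt10a on the opposite strand, which had 85 to 142 reads per library and a log2 ratio of -0.11.

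The other genes of assembly and secretion lay on both sides of 0. Of the 15 on the list, Mttp included, 6 had higher and 9 lower values in PX-478, with a median log2 ratio of -0.14 and 0 calls. Mia3, which loads bulky cargo at the endoplasmic reticulum exit site, stood at 121 ± 17.5 CPM in saline (SD, n = 4) and 216 ± 83.5 CPM in PX-478 (SD, n = 3). Its PX-478 libraries lay above every saline library on the TMM scale, as 4.3% of all genes did, and on CPM by total counts. The log2 ratio of Mia3, 0.83, went to 0.49 without PX-478 replicate 1. Tm6sf2, needed to lipidate the particle, stood at 20.7 ± 5.50 and 29.8 ± 3.26 CPM. Apob, the structural protein itself, stood at 2350 ± 351 CPM with saline and 1710 ± 267 CPM with PX-478 without overlap (log2 ratio -0.46, SE 0.22, adjusted p = 0.722 in edgeR). On the TMM scale 4.29% of all genes lay lower in every PX-478 library, as Apob did. On CPM by total counts the groups of Apob overlapped. Smlr1 also had lower values, at -0.40 (SE 0.20). Mttp and Apob thus both had lower values in the PX-478 livers, while Mia3 and Tm6sf2 had higher ones, and none passed the test. Of 10 hepatocyte markers, 9 also had lower and 1 higher values in PX-478, with a median log2 ratio of -0.26 and 0 calls. Among them Alb stood at -0.32 (SE 0.23) and Ttr, the gene of the plasma carrier transthyretin, at -0.57 (SE 0.22). The groups of Ttr did not overlap on the TMM scale but did on CPM by total counts. Their part in the values of Mttp and Apob was not tested.

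Among the remodelling genes, Pltp had the smallest p of the 10. Phospholipid transfer protein (Entrez Gene 18830, chromosome 2 from 164839518 to 164857711, minus strand) is secreted by hepatocytes and by macrophages. Saline libraries stood at 19.5, 24.8, 26.7 and 30.6 CPM and PX-478 libraries at 15.9, 16.6 and 11.4 CPM, that is 286 to 488 and 174 to 228 reads. All PX-478 libraries lay below the lowest saline library, replicate 1. The log2 ratio of -0.80 (SE 0.23) had a 95% interval from -1.29 to -0.31 and, in edgeR, an adjusted p = 0.481. It amounts to a 1.74-fold lower level, and its p ranked 111 among 13693. Leaving out each library in turn gave -0.90 to -0.64.

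Pltp overlaps its neighbour Ctsa, which encodes the lysosomal protease cathepsin A on the opposite strand, at its 3′ end. The overlap covers 495 exon bases, 19.3% of those of Pltp. Without strand in the counting notes, reads there cannot be told apart. Ctsa stood at 201 ± 43.6 CPM with saline and 188 ± 45.0 CPM with PX-478, a log2 ratio of -0.10 (SE 0.23).

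Lipoprotein lipase, Lpl (Entrez Gene 16956, chromosome 8 from 68880491 to 68907448, plus strand), hydrolyses the triglyceride of chylomicrons and very low density lipoprotein, chiefly in muscle and fat, and in adult liver is known mainly from macrophages. Here Lpl had 1272 to 3322 reads per library. Saline libraries stood at 216, 175, 145 and 146 CPM and PX-478 libraries at 108, 139 and 83.0 CPM. Saline replicate 1 was the highest, and PX-478 replicate 2 came closest to the saline range, which it did not reach. For Lpl the log2 ratio of -0.63 (SE 0.23) had a 95% interval from -1.12 to -0.14 (edgeR, adjusted p = 0.602), which is 1.55-fold lower, with -0.83 to -0.46 when each library was left out.

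The other lipase and the acyltransferase differed less than libraries of a group did. Hepatic lipase, Lipc (Entrez Gene 15450, chromosome 9 from 70798128 to 70952226), hydrolyses phospholipid and triglyceride of remnants and high density lipoprotein. It stood at 111, 107, 101 and 69.5 CPM in saline and 128, 78.7 and 118 CPM in PX-478 (log2 ratio 0.16, 95% interval -0.33 to 0.64, and 0.03 to 0.34 when each library was left out). Each group held 1 library well below its others, saline replicate 4 and PX-478 replicate 2. Lcat (Entrez Gene 16816, chromosome 8 from 105939551 to 105943382), which esterifies the cholesterol of high density lipoprotein, stood at 211, 258, 318 and 276 CPM with saline and 299, 258 and 284 CPM with PX-478 (log2 ratio 0.08, 95% interval -0.34 to 0.50). The PX-478 range lay inside the saline range.

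The wider list of remodelling genes held 20, of which 9 had higher and 11 lower values, with a median of -0.04 and 0 calls. Lmf1, the endoplasmic reticulum factor that folds lipoprotein lipase and hepatic lipase, stood at 86.4 ± 8.65 CPM with saline and 59.6 ± 9 CPM with PX-478 without overlap (log2 ratio -0.54, SE 0.18, adjusted p = 0.577 in edgeR). Apoc3, an inhibitor of triglyceride clearance, stood at 4390 ± 288 and 3470 ± 465 CPM (-0.34, SE 0.21). Pcsk6, a proprotein convertase that can cleave endothelial lipase and lipoprotein lipase, had a log2 ratio of 0.34 (SE 0.19). Lpl, Lmf1 and Apoc3 therefore all had lower values in PX-478, with no gene past the threshold.

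**Figure D2:**
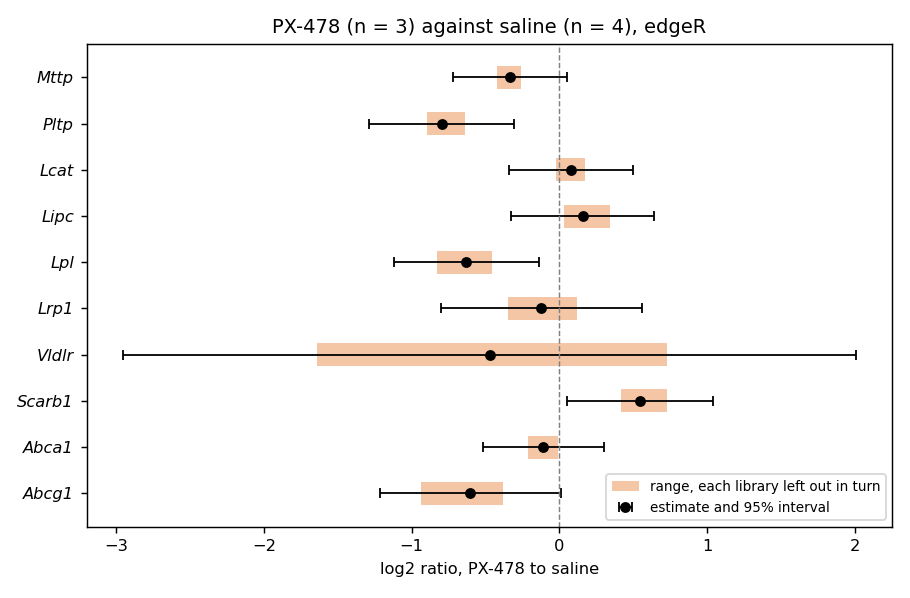
Log2 ratio of PX-478 (n = 3) to saline (n = 4) for the 10 genes, with points and bars for the edgeR estimate and its 95% interval and shaded boxes for the range when each library was left out in turn. Pltp, Lpl and Scarb1 have intervals that leave out 0 before adjustment, and Vldlr has the widest, from -2.95 to 2.01.

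Of the receptors, Scarb1 had higher values in PX-478. Scarb1 (Entrez Gene 20778, chromosome 5 from 125277087 to 125341094, minus strand) encodes scavenger receptor class B type I, through which hepatocytes take cholesteryl ester out of high density lipoprotein. Saline libraries stood at 133, 88.3, 87.0 and 125 CPM and PX-478 libraries at 175, 116 and 184 CPM. PX-478 replicates 1 and 3 were above all saline libraries, and replicate 2 lay among them. This gives a log2 ratio of 0.55 (SE 0.23, 95% interval 0.05 to 1.04, adjusted p = 0.683 in edgeR), 1.46-fold higher, with 0.42 to 0.73 when each library was left out. Pdzk1, which encodes the adaptor that holds the receptor at the hepatocyte surface, had a log2 ratio of -0.04.

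Lrp1 (Entrez Gene 16971, chromosome 10 from 127538161 to 127621148, minus strand) is the large endocytic receptor that clears remnants. With 4468 to 14360 reads per library it took the most of the 10 genes in each library but saline replicate 3, where Lcat had more. Saline libraries stood at 728, 531, 295 and 899 CPM, a 3.05-fold range, and PX-478 libraries at 465, 644 and 580 CPM, all inside it. The lowest value came from saline replicate 3, the library with the most genes without reads. The log2 ratio was -0.12 (95% interval -0.81 to 0.56), and it turned to 0.12 without saline replicate 4 and to 0.03 under scaling by total counts.

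Vldlr (Entrez Gene 22359, chromosome 19 from 27216484 to 27254231, plus strand), a receptor for triglyceride-rich lipoproteins that is known to be induced by hypoxia in heart, fat and liver, was near the limit of detection. It had 22, 60, 0 and 16 reads in saline (1.43, 5.20, 0 and 1.00 CPM) and 41, 9 and 8 reads in PX-478 (2.85, 0.680 and 0.522 CPM). In saline replicate 3 a count of 0 allows up to 0.198 CPM, which is 3 reads and covers counting error only. The values of both groups interleaved, and the log2 ratio of -0.47 had an interval from -2.95 to 2.01. Without saline replicate 2 it was 0.73, and without PX-478 replicate 1 it was -1.64, so that 1 library set its sign.

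The list of 22 receptors and their regulators had 7 higher and 15 lower values, with a median of -0.05 and 0 calls. Cd36, a fatty acid and oxidised lipoprotein receptor of macrophages and endothelium that hepatocytes also express on rich diets, stood at 37.2 ± 10.1 CPM with saline and 19.1 ± 8.79 CPM with PX-478 (log2 ratio -0.96, SE 0.30, adjusted p = 0.541 in edgeR). Its groups overlapped through PX-478 replicate 2 at 29.1 CPM, and without that library the value was -1.40. Lrp5, a Wnt coreceptor of the LDL receptor family, stood at 71.9 ± 14.2 and 47.4 ± 8.82 CPM. Its groups did not overlap on the TMM scale, where 4.29% of all genes lay below, but did on CPM by total counts. Lrp10 had a log2 ratio of -0.37 (SE 0.19).

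The efflux transporters are both ABC proteins, and both had lower mean values in PX-478. Abca1 (Entrez Gene 11303, chromosome 4 from 53030787 to 53159895, minus strand) moves phospholipid and cholesterol onto lipid-poor apolipoprotein A-I. It stood at 98.2, 73.0, 93.5 and 114 CPM in saline and 81.9, 92.8 and 88.8 CPM in PX-478, with the PX-478 range inside that of saline (log2 ratio -0.11, 95% interval -0.52 to 0.30, and 0.05 under scaling by total counts). Abcg1 (Entrez Gene 11307, chromosome 17 from 31057675 to 31117988, plus strand) moves cholesterol towards mature high density lipoprotein and is prominent in macrophages. It stood at 13.0, 17.3, 14 and 20.7 CPM in saline and 7.10, 15.1 and 9.92 CPM in PX-478. PX-478 replicate 2 lay among the saline libraries and the other PX-478 libraries below them. For Abcg1 this gives a log2 ratio of -0.60 (SE 0.28, 95% interval -1.21 to 0.01, adjusted p = 0.722 in edgeR), from -0.94 without PX-478 replicate 2 to -0.38 without PX-478 replicate 1. Whether the difference of Abcg1 exceeds that of Abca1 was not tested.

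Of 15 efflux and cholesterol handling genes 5 had higher and 10 lower values, with a median of -0.11 and 0 calls. Cyp27a1, the sterol 27-hydroxylase, stood at 477 ± 178 CPM with saline and 876 ± 218 CPM with PX-478 (log2 ratio 0.88, SE 0.30, adjusted p = 0.577 in edgeR). The sterol exporters to bile, Abcg5 and Abcg8, had log2 ratios of 0.60 (SE 0.26) and 0.48 (SE 0.28). That of Abcg8 was 0.75 without PX-478 replicate 2 and 0.25 without PX-478 replicate 3. Soat1, the cholesterol esterifying enzyme of macrophages, stood at 3.82 ± 0.888 and 2.27 ± 0.350 CPM (-0.75, SE 0.39).

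LXR is the oxysterol receptor that switches on Abca1, Abcg1, Abcg5, Abcg8, Pltp, Lpl and Srebf1. Of 14 genes on its list 7 had higher and 7 lower values, with a median of -0.01 and 0 calls. Srebf1, which encodes the lipogenic factor SREBP-1, stood at 242 ± 72.0 CPM with saline and 404 ± 113 CPM with PX-478 (0.74, SE 0.27), and the receptor gene Nr1h3 had a log2 ratio of -0.09. Scd1, the stearoyl-CoA desaturase, had a log2 ratio of -0.66 (SE 0.49), which was -1.51 without PX-478 replicate 2 and -0.25 without PX-478 replicate 3. Of the LXR targets named, Pltp, Lpl, Abcg1, Abca1 and Scd1 had lower values and Srebf1, Abcg5 and Abcg8 higher ones. Over all genes tested 49.7% lay above 0 and 50.3% below. The list also holds genes of the receptors, a partner receptor and a corepressor, so its counts are not those of LXR targets alone. Whether LXR activity differed was not tested.

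Genes of SREBP-2, the transcription factor of cholesterol synthesis and uptake that is held back by sterol, had 11 higher and 4 lower values of 15, with a median of 0.32 and 0 calls. Fdft1, squalene synthase, stood at 25.5 ± 2.57 CPM with saline and 52.7 ± 15.5 CPM with PX-478 without overlap (log2 ratio 1.05, SE 0.21, adjusted p = 0.195 in edgeR and 0.00806 in DESeq2). Insig2, which holds SREBP in the endoplasmic reticulum, stood at 72.6 ± 37.7 and 22.7 ± 4.82 CPM, also without overlap (-1.68, SE 0.35, adjusted p = 0.264 in edgeR and 0.000795 in DESeq2). Its highest library was saline replicate 1 at 128 CPM, without which the value was -1.25. Fdft1 and Insig2 were the only genes of these lists that DESeq2 called, where it called 46 higher and 37 lower among all 13693 genes.

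**Figure D3:**
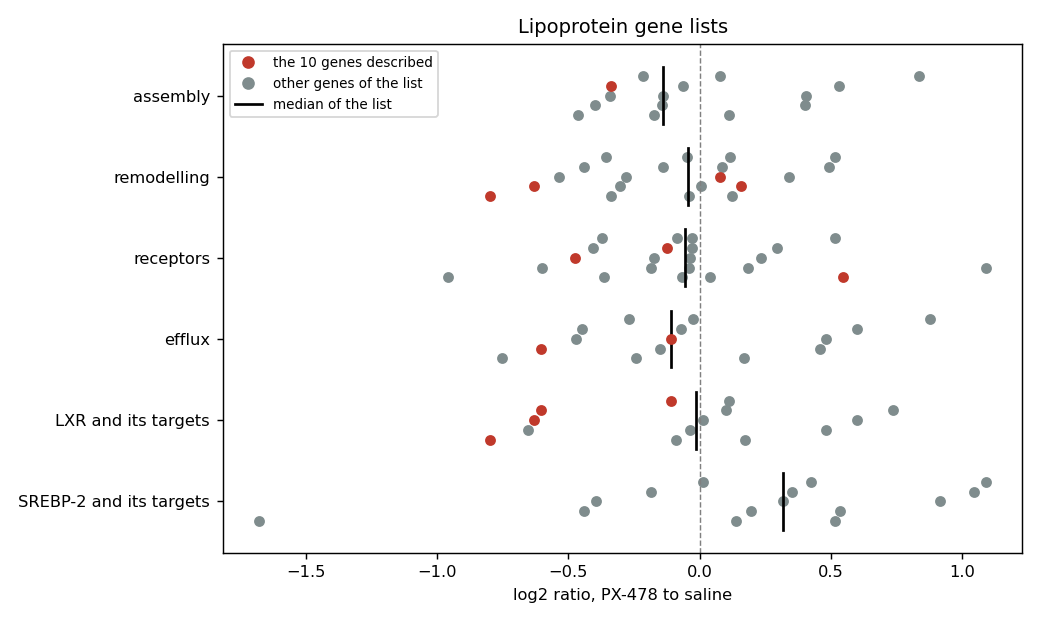
Log2 ratio of PX-478 to saline (horizontal axis) for every gene of 6 lipoprotein gene lists, with the 10 genes described in red, other genes in grey and the median of each list as a black line. The medians lie between -0.14 and 0.32, and Insig2 at -1.68 is the lowest point.

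Several of the genes with lower values are also made by macrophages, and macrophage markers were lower as well. Of 15 Kupffer cell and macrophage markers, 14 had lower and 1 higher values in PX-478, with a median log2 ratio of -0.57 and 0 calls. None of the 15 was at 0 in any library. Their summed level was 404, 528, 571 and 739 CPM with saline and 355, 369 and 475 CPM with PX-478. Cd68 stood at 26.1 ± 3.55 and 13.8 ± 1.02 CPM, the pan-macrophage gene Adgre1 at 3.64 ± 0.815 and 2.66 ± 1.09 CPM, and the Kupffer cell lectin Clec4f at 117 ± 41.5 and 104 ± 32.8 CPM. In saline Pltp was lowest in replicate 1 and highest in replicate 4, as was the marker sum, whereas Lpl was highest in replicate 1. The part of these cells in the values of Pltp, Lpl, Abcg1 and Cd36 was not tested, and in bulk tissue fewer cells of a type and less RNA per cell cannot be told apart.

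Endothelial markers had 7 of 10 higher values (median 0.38, 0 calls), where 49.7% of all genes lay above 0. Their sum was 264 to 345 CPM with saline and 312 to 412 CPM with PX-478. Among the 3 lower were Pecam1, at -0.47 (SE 0.22), and Cdh5, at -0.09 (SE 0.38). Gpihbp1, which anchors lipoprotein lipase on capillaries, stood at 11.5 ± 1.09 and 11.2 ± 2.72 CPM. Of 11 adipocyte markers 7 were analysed, with sums of 99.1 to 198 CPM with saline and 102 to 132 CPM with PX-478. The defining markers Adipoq and Plin1 were not matched by symbol among the genes of the authors' counts. Cfd, the single gene past the threshold, belongs to that list, and the 6 others had log2 ratios from -0.83 (Plin4) to 0.37 (Lipe).

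**Figure D4:**
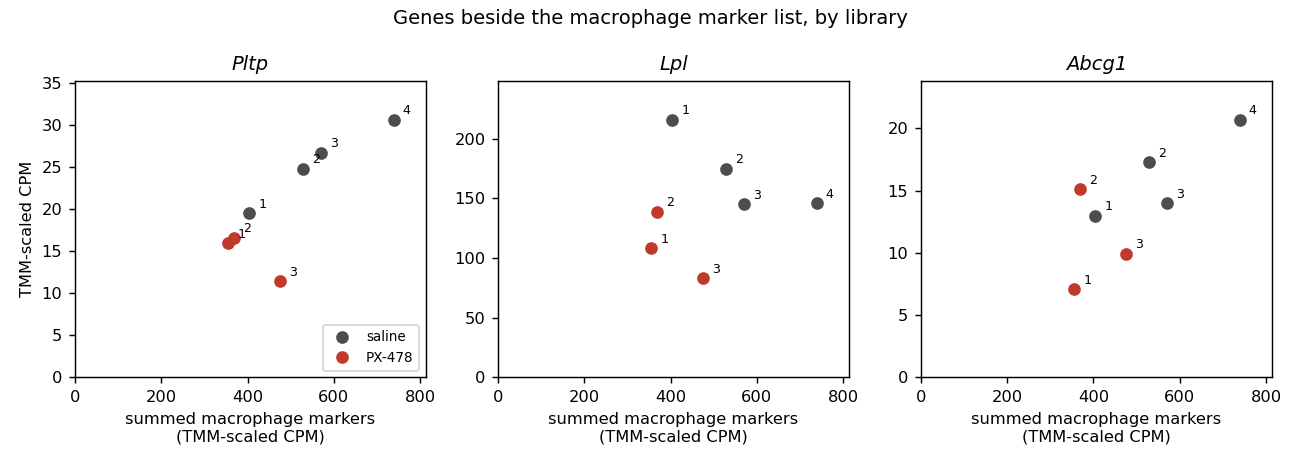
TMM-scaled CPM of Pltp, Lpl and Abcg1 (vertical axes) against the summed TMM-scaled CPM of 15 macrophage markers (horizontal axis), 1 point per library with its replicate number, saline in grey and PX-478 in red. PX-478 replicate 3 has the highest marker sum of its group, 475 CPM, and its lowest Pltp, 11.4 CPM, and Lpl, 83.0 CPM.

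Profiles most like those of the leading genes were sought among 7898 tested genes whose mean log2 CPM reached 3. Likeness was the root mean square difference of log2 CPM, centred per gene, over the 7 libraries. Closest to Pltp were Lgals3, the galectin-3 gene of macrophages, at a difference of 0.135, then Gltp, a glycolipid transfer protein, at 0.174 and Klhl18 at 0.189. Closest to Lpl were Pgrmc2 at 0.069, Tmem254c at 0.101 and Cyb5b at 0.112. Closest to Scarb1 were Rpap1 at 0.114, Rnaset2b at 0.124 and Bhmt2, a methyltransferase of hepatocytes, at 0.129. All libraries and their scaling are shared by these comparisons. Group means were not removed, so genes that differ likewise between the groups are favoured. The closest genes, Lgals3, Pgrmc2 and Rpap1, had log2 ratios of -0.94, -0.60 and 0.50. The cells that made Pltp, Lpl or Scarb1 were not tested by likeness.

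The authors' deposited table gives the same direction for all 10 genes with smaller p-values, which are not adjusted. In the authors' deposited table the log2 ratio of Pltp is -0.80 with a p-value of 2.92e-05, that of Lpl -0.63 with 0.000679, that of Mttp -0.33 with 0.00264, that of Scarb1 0.55 with 0.00272 and that of Abcg1 -0.60 with 0.00687. Of all genes in the authors' deposited table, 25.9% have such a p-value under 0.05. When each of the 14 count columns was entered as a library, each mouse counted as 2. In that fit edgeR called Pltp, Lpl and Mttp lower and Scarb1 higher. Of all 13647 genes tested there, 643 were called higher and 717 lower. The 2 columns of a mouse differed by less than the sampling noise, so they were counted as 1 sample in every other value.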

How the data were processed

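Liver total RNA of 7 ApoE-/- mice was sequenced, 4 given saline and 3 given PX-478, and groups and replicate numbers come from the sample titles. The authors deposited a table of raw counts by Entrez Gene ID. The submitters' processing notes name featureCounts, edgeR and mm10 without versions and no aligner. All genes in it exceeded 0.5 CPM in 2 or more of its 14 count columns. The log2 fold change of the authors' own test and its p-value, not adjusted, were deposited beside the counts, per the file headers. Another 7 columns of per-sample averages and 4 of group means and medians were not used.

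Each sample has 2 count columns. Chi-square per gene was 0.291 to 0.765 between them and 49.2 to 146 between libraries of a group, so their mean, rounded, was taken as 1 sample. Counts were filtered with filterByExpr, scaled by TMM and compared with edgeR 4.0.16 (quasi-likelihood F test, robust, no covariate, R 4.3.3), with p-values adjusted by Benjamini-Hochberg over 13693 genes at a threshold of 0.05. The SE is the size of the log2 ratio divided by the root of F. The labels do not say how the mice were housed or processed, and p-values reflect only the variation among these libraries, which may be technical in part. DESeq2 1.42.0, limma 3.58.1 (voom), other scalings, filters and count columns, a replicate block and leaving out each library were alternatives. Scaling by total counts only, totals without mitochondrial genes and all 14 columns as libraries were added after seeing the data.

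The script of the test was checked on simulated counts. The genes, the lists and the tests were chosen with earlier results of these data known. Named genes are the 10, the 4 other genes of each list with the smallest p and any past the threshold, the 3 closest profiles of the 3 genes with the smallest p, and chosen markers; some genes that this rule names are not reported here. Pdzk1, Nr1h3, Plin4, Lipe, Alb, Ttr, Pecam1 and Cdh5 were named after their values were seen. Gene positions, exon lengths and overlaps come from GENCODE on GRCm38, and promoters from RefSeq on GRCm38.p6.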

Additional observations from a re-analysis of the deposited data

How the results depend on the processing

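Over 20 alternatives, leaving aside the fit with 14 columns, the log2 fold changes of Pltp, Lpl, Mttp, Scarb1 and Abcg1 kept their direction, from -0.90 to -0.62, -0.83 to -0.44, -0.42 to -0.19, 0.42 to 0.73 and -0.94 to -0.38. In none of these was any of the 10 genes past the threshold, and their lowest adjusted p was 0.19, for Pltp in DESeq2. Of 200 such values for the 10 genes 11 changed sign, among genes close to 0 or, for Vldlr, with few reads. The fit with a replicate block gave -0.00038 for Lipc, 0.20 for Lrp1, 0.23 for Vldlr and 0.0021 for Abca1, limma-voom gave 0.70 for Vldlr, and scaling by total counts gave 0.03 for Lrp1 and 0.05 for Abca1. Leaving out 1 library gave -0.02 to 0.17 for Lcat, -0.35 to 0.12 for Lrp1 (0.12 without saline replicate 4 and 9e-04 without PX-478 replicate 1) and -1.64 to 0.73 for Vldlr. Under scaling by total counts the median of all genes was 0.15, a shift not subtracted from the values given. The cause of these changes of sign was not tested.

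The block and scaling by total counts each left 5 of the 10 genes above 0, against 3. For scaling by total counts this holds with the shift of all genes, a median of 0.15, not subtracted. Same-numbered samples did not deviate together (correlations of -0.02, -0.07 and 0 for the 3 numbers), so the numbers were not taken as pairs. The block called 1 gene higher and 2 lower over all genes. Genes called higher and lower were 46 and 37 in DESeq2, 0 lower in limma-voom, 4 higher under scaling by total counts, 1 higher at an adjusted p of 0.1, and 0 to 4 higher and 1 to 3 lower when 1 library was left out, with 4 higher without saline replicate 4 or PX-478 replicate 2. DESeq2 called 1 other pathway gene higher (Fdft1) and 1 lower (Insig2), and leaving out 1 library gave 0 to 1 higher. Genes of the 10 without overlap went from 3 to 1 on CPM by total counts, with or without mitochondrial genes. With all 14 columns as libraries 643 of 13647 genes tested were called higher and 717 lower. Of the 10, 1 was called higher (Scarb1, 0.55) and 3 lower (Pltp -0.80, Lpl -0.63, Mttp -0.34). Of the 81 other pathway genes 6 were called higher and 11 lower. The SE of the log2 fold change was 0.179 to 0.314 for 9 of the 10 genes and 1.12 for Vldlr, whose few reads and 0 count limit what could be seen.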
